A study of Mus musculus with 8 samples.

Results

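The tripartite motif (TRIM) family was followed in murine HCA-1 liver tumors taken 3 h after PFSUV-IMQ or saline. Its members were taken as every gene whose symbol is Trim followed by a number and at most 1 letter from a to e, which gave 66 genes of the 55536 counted. At least 1 read was counted for 64 of them in the 8 tumors, and 46 passed the filter on low counts and were tested. Of the tested members, 14 rose after PFSUV-IMQ and 0 fell, beside 2.26% and 0.200% of all 15998 tested genes. Trim21, Trim25, Trim56 and the Trim30 and Trim34 genes were among those that rose, whereas the corepressors Trim24, Trim28 and Trim33 and the tested members with NHL repeats did not pass the test in either direction.

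HCA-1 is a murine hepatocellular carcinoma (HCC) line, and its cells were placed orthotopically in the liver of male C3H mice, aged 6 to 8 weeks by the sample labels. On day 17 the mice received i.v. either saline (4 control tumors, numbered 1, 3, 4 and 5) or PFSUV-IMQ at 4 mg kg−1 (4 PFSUV-IMQ tumors, numbered 1 to 4), and the tumors were taken 3 h later. PFSUV-IMQ is imiquimod, an agonist of the endosomal RNA receptor TLR7, loaded in phospholipid-free small unilamellar vesicles. No mouse received imiquimod without vesicles or vesicles without imiquimod among the samples used here, and all tumors came from the same line and mouse strain, so the comparison is between the loaded vesicle and saline. Interferon itself was not given, and the response of each member is its response to PFSUV-IMQ.

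Most TRIM proteins are E3 ubiquitin ligases, which attach ubiquitin to other proteins through an N-terminal RING domain that is followed by B-box and coiled-coil regions. The C-terminal domain differs between members and sets what each protein binds, and PRY-SPRY is the most common of these domains. Several members are known to be induced by type I interferon through factors such as STAT2 and IRF9, which act at the interferon-stimulated response element (ISRE) in promoters, and these members act in the sensing and restriction of viruses. Others are housekeeping regulators of transcription, protein turnover or the cytoskeleton.

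The ISRE is the element that such a response is known to run through, so promoters that hold a match to it are shown with the match in capitals. Promoters were those of RefSeq for GRCm38.p6, from 250 bases before to 50 bases after the start site, and 51 of the 66 members had an entry. The core of the element, 2 copies of GAAA with any 2 bases between them, was searched on both strands. A match read from the opposite strand appears as 2 copies of TTTC, and overlapping matches form 1 longer run of capitals. The promoter of Trim21, with 2 overlapping matches just past its start site, is shown to 30 bases past that site.
Trim21 (chr7:102565453-102565732, minus strand): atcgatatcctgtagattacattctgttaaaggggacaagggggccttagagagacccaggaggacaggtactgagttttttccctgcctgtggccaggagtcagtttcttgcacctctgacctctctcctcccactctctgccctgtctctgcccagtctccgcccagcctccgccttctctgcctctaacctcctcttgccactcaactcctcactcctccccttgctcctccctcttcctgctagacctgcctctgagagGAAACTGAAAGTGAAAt

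On chromosome 7 the matches lay close to the start site in related genes, and 60 bases around each are shown so that the copies can be compared. Trim5 and Trim12a, which had too few counts to be tested, are included because their promoters are close copies of that of Trim12c. For Trim30c the capitals mark the bases that align with the match of Trim30a and are no match themselves.
Trim30a (chr7:104465195-104465254, minus strand): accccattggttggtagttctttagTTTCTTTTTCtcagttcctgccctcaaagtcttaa
Trim30d (chr7:104507856-104507915, minus strand): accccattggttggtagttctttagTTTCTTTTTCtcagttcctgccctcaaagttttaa
Trim30c (chr7:104400881-104400940, minus strand): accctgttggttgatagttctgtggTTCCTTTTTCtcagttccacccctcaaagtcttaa
Trim12c (chr7:104353344-104353403, minus strand): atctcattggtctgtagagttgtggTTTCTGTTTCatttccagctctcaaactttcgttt
Trim5 (chr7:104288121-104288180, minus strand): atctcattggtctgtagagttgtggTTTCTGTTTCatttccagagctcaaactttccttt
Trim12a (chr7:104315466-104315525, minus strand): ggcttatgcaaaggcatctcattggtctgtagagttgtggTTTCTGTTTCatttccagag
Trim34a (chr7:104244427-104244486, plus strand): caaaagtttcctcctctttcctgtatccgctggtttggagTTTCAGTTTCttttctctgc
The aligned promoters of Trim30a and Trim30d were identical at 93.9% of 294 positions, and the stretch of Trim30c that could be aligned with Trim30a at 89.2% of 176. Trim30c differed from Trim30a within the match by T3C, counted from 1 at the first capital base. Trim5 and Trim12a were identical over 241 aligned positions, and Trim5 and Trim12c at 94.2% of 278. Trim26, on chromosome 17 in the major histocompatibility region, held 2 overlapping matches.
Trim26 (chr17:36836964-36837023, plus strand): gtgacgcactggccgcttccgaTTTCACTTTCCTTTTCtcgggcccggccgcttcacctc

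Among members that rose and had an entry, 6 of 13 held the ISRE core (Trim12c, Trim21, Trim26, Trim30a, Trim30d and Trim34a). The core was also found in 1 of 21 tested members that were not called, Trim2, and in 2 of 17 untested members, Trim5 and Trim12a. Over all genes with a promoter entry, 3.99% of 27025 held it. The letters TTCNNNGAA, the gamma-activated site, occurred in 1 of the 13 (Trim30c), in 3 of the 21 and in 2 of the 17, beside 9.55% of all genes. A match is only a run of letters in the C57BL/6J reference, the mice here were C3H, and no binding was measured.

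The deposited counts per tumor totalled 16883911 to 27687756 in the control group and 17008151 to 18527613 in the PFSUV-IMQ group. Levels are given as normalized CPM, which are counts relative to library size after scaling by edgeR's TMM method, in the tumor order 1, 3, 4 and 5 for control and 1, 2, 3 and 4 for PFSUV-IMQ. At these depths 3 counts corresponded to 0.105 to 0.210 normalized CPM, and this floor covers counting error only. The tumors expressed the keratins Krt8 and Krt18 and the liver gene Alb, whereas the HCC marker Gpc3 averaged 1.23 normalized CPM in control tumors. PFSUV-IMQ tumor 2 stood apart from its group. It held the highest value in its group for 320 of the 362 genes called higher (88.4%), its mitochondrial share of counts was the highest at 6.65%, and it had the highest summed level of its group in 10 of 13 lists of cell type markers, the hepatocyte list and those of T cells, NK cells, B cells, neutrophils and macrophages among them. Its Alb level was 22736 normalized CPM, against 4259 to 5479 in the other treated tumors. Apoa1 and Ttr of the hepatocyte list were also highest in tumor 2, whereas Krt8, Krt18, Afp and Gpc3 were lowest there among treated tumors. Krt8 stood at 444 normalized CPM in tumor 2 against 602 to 941 in the other treated tumors, and Krt18 at 550 against 894 to 1102. The summed dendritic cell markers of tumor 2, at 62.2 normalized CPM, were the lowest of its group. The calls of the TRIM and pathway genes are therefore also counted without tumor 2, and other values include it unless stated. In bulk tumor RNA, more cells of a type cannot be told apart from more RNA per cell.

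Calls required a Benjamini-Hochberg adjusted p under 0.05 in edgeR's quasi-likelihood test and a log2 fold change above 1 (higher) or below −1 (lower). By this rule 14 of the 46 tested members were higher, beside 2.26% of all 15998 tested genes. No member was called lower, beside 0.200% of all genes. At an unadjusted p under 0.05, 17 members were higher and 2 lower, and the Wald test of DESeq2 also called 14 higher and 0 lower. The median log2 fold change of the tested members was 0.22, against −0.03 over all tested genes, with 29 members above 0 and 17 below. The lowest PFSUV-IMQ tumor lay above the highest control tumor in 15 members, beside 6.00% of all genes, and the reverse held for 1 member, Trim37, beside 3.28% of all genes.

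**Figure D1:**
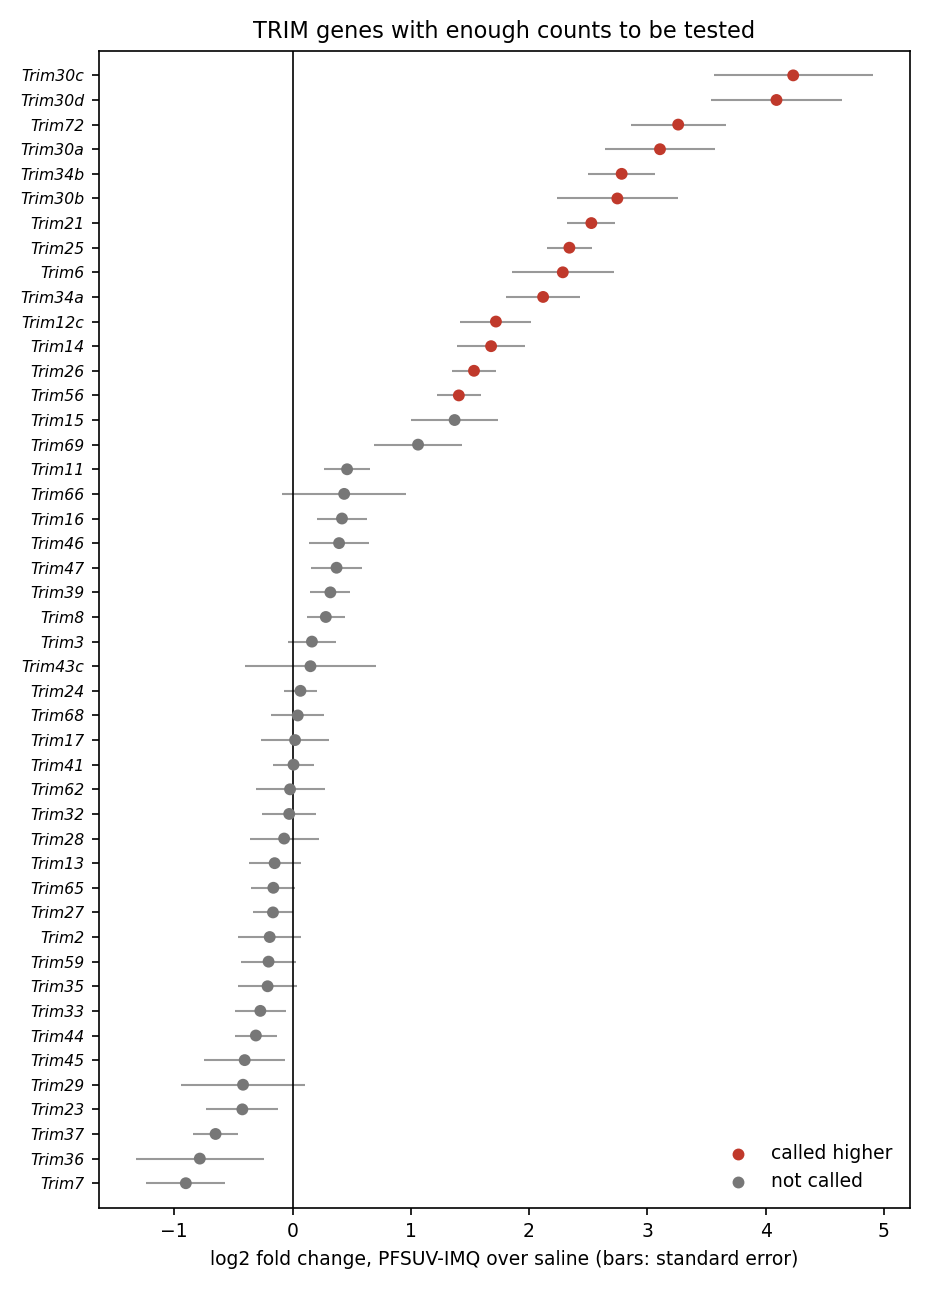
Log2 fold change of PFSUV-IMQ over saline for the 46 tested TRIM genes (points), with bars for the standard error and red for members called higher. The 14 called members lie between 1.41 and 4.23, and 27 of the other 32 lie within 0.5 of 0.

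The PRY-SPRY members held 13 of the 14 calls. Of 38 members assigned this domain, 28 were tested and 13 rose, beside 2.26% of all tested genes. Their median log2 fold change was 1.22, beside −0.03 over all genes. Of these 13 calls, 9 are chromosome 7 genes from Trim21 to Trim30d. Those 9 include near copies and are not independent of each other, so the count is not one of separate genes sharing a domain. The 1 call outside the PRY-SPRY group was Trim56, whose C-terminal region was not assigned to a domain group. None was called among the tested members with a COS box (2), NHL repeats (3), a PHD finger and bromodomain (4), a transmembrane segment (2) or a domain found in 1 member only (3). In these 5 groups 1 member had an unadjusted p under 0.05, Trim37, which was lower, and DESeq2 called none. Of 17 members written down as interferon-induced, a list made with earlier results of these data known, 14 were tested and 13 rose (median 2.31). Outside that list 32 members were tested and 1 rose, Trim72, with a median of −0.02. Over all tested genes 2.26% were called higher. Because results were known when the list was made, the contrast between its members and the others is no test.

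Sensing of viral RNA in the cytosol starts with receptors such as RIG-I (gene Ddx58), and TRIM25 is the E3 ligase best known for acting with it. Trim25 (ENSMUSG00000000275, chromosome 11, 88999376 to 89020293) stood at 89.0, 87.0, 66.5 and 76.5 normalized CPM in the control tumors. After PFSUV-IMQ it stood at 330.1, 500.5, 382 and 403. Every treated tumor thus held several times the level of any control tumor, and the groups did not overlap. The log2 fold change was 2.34 ± 0.19 (SE), a 5.07-fold rise (adjusted p = 5.52e-04), and it was 2.20 without PFSUV-IMQ tumor 2. Per kilobase of exon, Trim25 was the most abundant called member in control tumors, at 13.9 normalized CPM per kb.

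Trim21 (ENSMUSG00000030966, chromosome 7, 102557921 to 102565486) encodes a cytosolic receptor for antibody that also acts as an E3 ligase on coated virus particles. Control tumors gave 22.4, 26.0, 20.8 and 17.0 normalized CPM and PFSUV-IMQ tumors 107, 157, 104 and 129. Its spread within each group was small, with the highest treated tumor 1.51 times the lowest. It rose by 2.53 ± 0.20 (SE) on the log2 scale (adjusted p = 4.99e-04), the smallest adjusted p among the members, and by 2.37 without PFSUV-IMQ tumor 2.

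Trim56 and Trim26 were already abundant in control tumors. TRIM56 is an E3 ligase of the cytosolic DNA and RNA sensing pathways, and its gene (ENSMUSG00000043279, chromosome 5, 137105644 to 137116209) gave 123, 101, 88.4 and 128 normalized CPM in control and 252, 269, 348 and 301 in PFSUV-IMQ tumors. It was the only called member whose highest treated tumor was not tumor 2 but tumor 3. The change of Trim56 was 1.41 ± 0.19 (SE) (adjusted p = 0.00413). Trim26 (ENSMUSG00000024457, chromosome 17, 36837134 to 36859398), an E3 ligase reported to act on interferon induction, went from 67.4, 79.2, 91.8 and 87.6 to 188, 286, 239 and 232. Neither gene's groups overlapped, and Trim26 changed by 1.53 ± 0.18 (SE) (adjusted p = 0.00243). Per kilobase of exon the 2 genes had nearly the same control level, 11.9 for Trim26 and 11.9 for Trim56.

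TRIM14 lacks a RING domain and serves as an adaptor at mitochondria together with MAVS. Trim14 (ENSMUSG00000039853, chromosome 4, 46493781 to 46536141) had 6.87, 4.64, 9.06 and 5.76 normalized CPM in control tumors and 17.3, 31.3, 16.3 and 19.4 in PFSUV-IMQ tumors, again without overlap. Its log2 fold change was 1.68 ± 0.29 (SE) with an adjusted p of 0.0146, and the call was lost when control tumor 1 (adjusted p = 0.0551) or control tumor 3 (adjusted p = 0.0536) was left out. Of its exon bases, 38.0% overlap genes on the opposite strand, chiefly Nans, and the strand setting of the counting is not given in the sources used here, so reads of the 2 genes may not be separated. Nans itself had a log2 fold change of −0.21 (adjusted p = 0.748) with 40.5 normalized CPM in PFSUV-IMQ tumor 2, the tumor where Trim14 was highest.

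**Figure D2:**
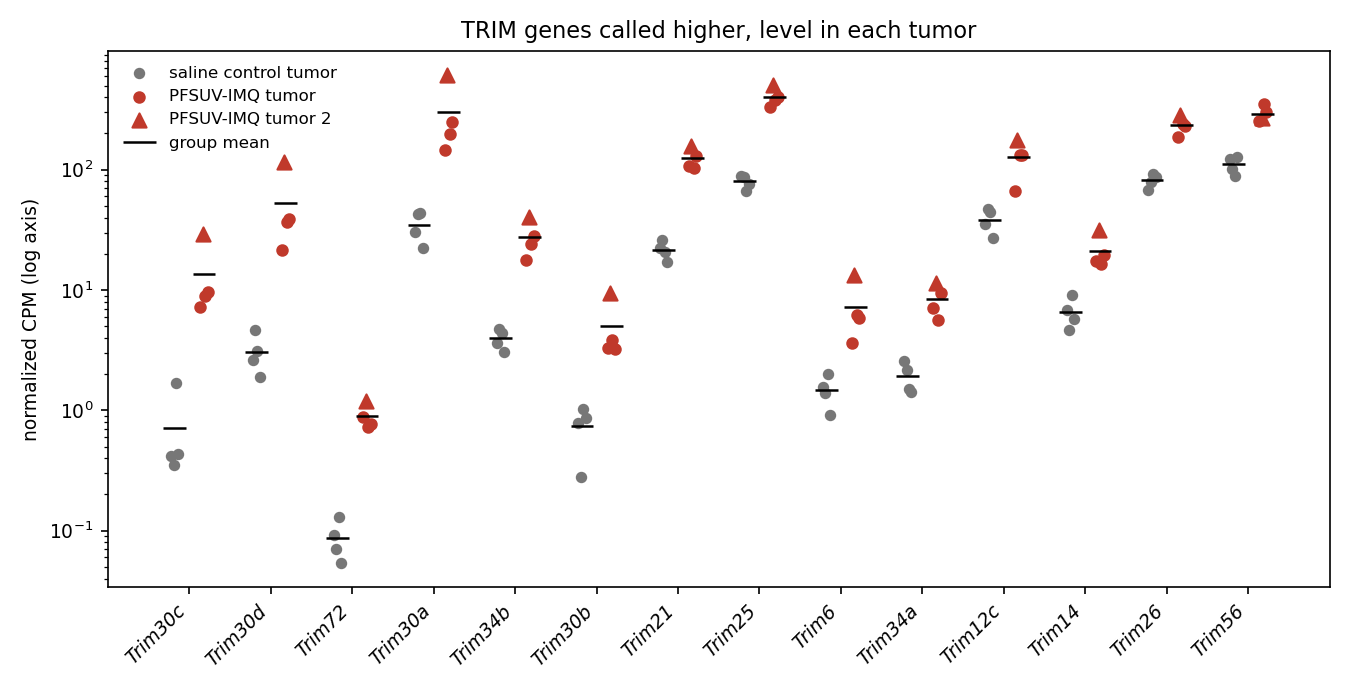
Normalized CPM (log axis) of the 14 called TRIM genes in each of the 4 control tumors (gray) and 4 PFSUV-IMQ tumors (red, with tumor 2 as a triangle), with black lines for group means. The groups do not overlap for any of the 14, and tumor 2 is the highest treated tumor for 13 of them.

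Trim6, Trim34a, Trim5, Trim12a, Trim34b, Trim12c and the 4 Trim30 genes lie side by side on chromosome 7, from 104218793 to 104507849 (GRCm38), a span of 289 kb. Trim21 and Trim68 lie nearer the start of the chromosome, with 1653 kb from the end of Trim21 to Trim6. Of these 12 members, 10 were tested and 9 rose (median log2 fold change 2.64), beside 2.26% and a median of −0.03 over all tested genes. The only tested member of the 12 that was not called was Trim68, at 4.98, 5.94, 8.51 and 5.86 normalized CPM in control and 6.12, 7.27, 6.25 and 6.45 in PFSUV-IMQ tumors (log2 fold change 0.04 ± 0.22 (SE)). No other counted gene within the span had enough counts to be tested, so neighbors outside the family could not be compared there. The 9 genes include near copies and are not independent of each other.

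**Figure D3:**
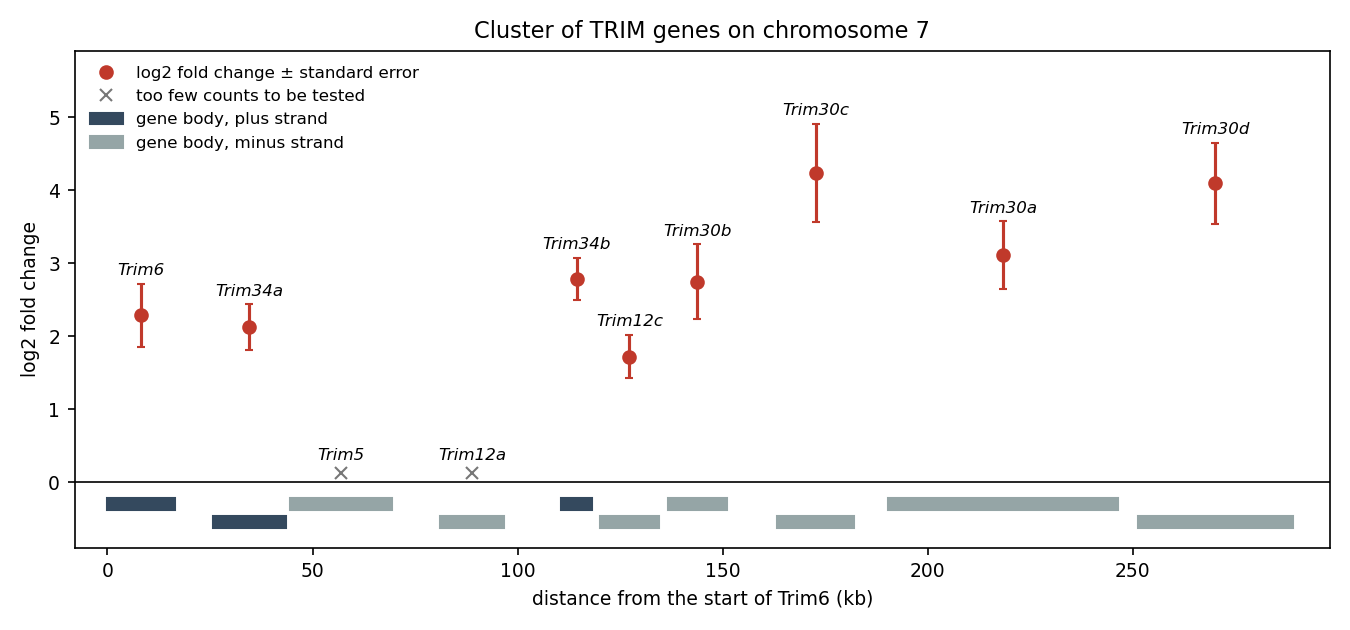
Log2 fold change (points, bars for the standard error) of the TRIM genes along the chromosome 7 cluster against distance from the start of Trim6 in kb, with gene bodies drawn below and crosses for Trim5 and Trim12a, which were not tested. All 8 tested genes in the window lie between 1.72 and 4.23.

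Trim30a is the best known of the mouse Trim30 genes, and its protein restrains TLR signaling by promoting loss of TAB2 and TAB3. The gene (ENSMUSG00000030921, chromosome 7, 104409025 to 104465193) had 30.3, 42.7, 43.8 and 22.5 normalized CPM in control tumors. In PFSUV-IMQ tumors it had 146, 609.9, 198 and 247, so tumor 2 held more than the sum of tumors 1 and 4 and the other treated tumors still lay above every control. The log2 fold change was 3.11 ± 0.46 (SE) (adjusted p = 0.00759), and it was 2.48 without tumor 2. Per kilobase of exon its mean after PFSUV-IMQ was 73.0 normalized CPM per kb, beside 70.2 for Trim25, and this order turned without tumor 2, at 47.9 and 64.6.

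Trim30d (ENSMUSG00000057596, chromosome 7, 104470014 to 104507849) started lower, at 2.63, 4.67, 3.09 and 1.90 normalized CPM, and reached 21.6, 115, 36.5 and 38.6. It rose by 4.09 ± 0.55 (SE) on the log2 scale (adjusted p = 0.00436). Trim30c (ENSMUSG00000078616, chromosome 7, 104382065 to 104400837) had the largest fitted change of the family, 4.23 ± 0.67 (SE) (adjusted p = 0.0105), but without control tumor 3 its 3.99 lay below the 4.37 of Trim30d. Its control tumors gave 0.415, 0.351, 1.68 and 0.434 and its PFSUV-IMQ tumors 7.17, 29.1, 8.92 and 9.54, so control tumor 4 stood well above the other controls and still below every treated tumor. Without control tumor 4 its change was 5.08. Without PFSUV-IMQ tumor 2 the changes were 3.36 for Trim30d and 3.54 for Trim30c.

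Trim30b (ENSMUSG00000052749, chromosome 7, 104355382 to 104369884) was the least abundant of the 4 per kilobase of exon and gave 0.783, 0.281, 1.03 and 0.869 against 3.31, 9.50, 3.85 and 3.25 normalized CPM. Treated tumors 1, 3 and 4 were near each other, and tumor 2 alone stood far above them. Its log2 fold change was 2.75 ± 0.51 (SE) (adjusted p = 0.0223), and the call was lost without control tumor 1 (adjusted p = 0.0801) or control tumor 3 (adjusted p = 0.0563). Reads shared between the copies were few by sequence, since 6.53% of the 50-base words of the longest Trim30a transcript and 8.29% of those of Trim30d occur in another gene.

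Trim34a and Trim34b are the mouse relatives of human TRIM34, a neighbor of TRIM5. Trim34b (ENSMUSG00000090215, chromosome 7, 104329471 to 104336909) had 3.64, 4.78, 4.42 and 3.04 normalized CPM in control and 17.6, 40.0, 24.3 and 27.9 in PFSUV-IMQ tumors. Trim34a (ENSMUSG00000056144, chromosome 7, 104244457 to 104262234) had 2.58, 2.18, 1.50 and 1.41 and 7.12, 11.4, 5.63 and 9.37. Both genes were higher in all 4 treated tumors than in any control, by 2.78 ± 0.28 (SE) for Trim34b (adjusted p = 0.00115) and 2.12 ± 0.32 (SE) for Trim34a (adjusted p = 0.00753). These copies share much of their sequence, with 61.9% of the 50-base words of Trim34a and 59.0% of those of Trim34b found in another gene, mostly each other, so how the reads were divided between them is uncertain.

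Trim12c, with Trim5 and Trim12a, belongs to the mouse counterparts of human TRIM5, the restriction factor that binds retroviral capsids. Trim12c (ENSMUSG00000057143, chromosome 7, 104338754 to 104353362) had 35.1, 47.4, 44.5 and 27.1 normalized CPM in control tumors and 66.4, 176, 133 and 132 in PFSUV-IMQ tumors. Treated tumor 1 was the lowest of its group and lay above the highest control by a smaller margin than tumors 2, 3 and 4. The change was 1.72 ± 0.30 (SE) (adjusted p = 0.0164), and the call was lost without control tumor 1 (adjusted p = 0.0713) or PFSUV-IMQ tumor 4 (adjusted p just above the threshold).

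Trim5 had 2 counts over the 4 control tumors and 7 over the 4 PFSUV-IMQ tumors, a ratio of 4.69 after scaling (95% exact interval 0.894 to 46.3, counting error only). Trim12a had 6 and 16 counts, a ratio of 3.58 (1.33 to 11.2). Neither gene was tested, and 38.4% of the 50-base words of Trim5 occur in another gene, chiefly Trim12c. Trim5 and Trim12a thus held few reads in the same tumors in which Trim12c was well counted.

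TRIM6 builds free ubiquitin chains that act with the kinase encoded by Ikbke. Trim6 (ENSMUSG00000072244, chromosome 7, 104218793 to 104235152) had 1.57, 1.41, 2.02 and 0.923 normalized CPM in control and 3.64, 13.3, 6.19 and 5.90 in PFSUV-IMQ tumors. Tumor 2 was again far above the rest of its group, and the groups did not overlap. The log2 fold change was 2.29 ± 0.43 (SE) (adjusted p = 0.0241), and 1.80 without tumor 2. Trim6 was the least secure call, lost without control tumor 1, 3 or 5 (adjusted p = 0.0823, 0.0877 and 0.0552) and without PFSUV-IMQ tumor 4, where its adjusted p was just above the threshold.

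Trim72 was the only called member outside the list of interferon-induced genes, which was made with earlier results of these data known. Its protein, also known as MG53, takes part in membrane repair of striated muscle. The gene (ENSMUSG00000042828, chromosome 7, 128003949 to 128011033) had 1 to 3 counts in each control tumor and 13 to 17 in each PFSUV-IMQ tumor, or 0.0922, 0.0703, 0.129 and 0.0543 against 0.883, 1.19, 0.725 and 0.772 normalized CPM. Control levels were thus at or below the floor. The summed counts, 8 against 60, gave a ratio of 10.1 after scaling (95% exact interval 4.79 to 24.4, counting error only). The fitted log2 fold change of 3.26 ± 0.40 (SE) (adjusted p = 0.00295) depends on the prior count. An unstranded count could not separate Trim72 from the antisense gene Gm15533, which covers 27.6% of its exon bases and had 0 to 4 counts per tumor.

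The muscle RING members Trim54, Trim55 and Trim63, which carry a COS box, had 0 to 4 counts in every tumor and were not tested. Of 5 striated muscle markers, Ckm and Myh4 were at or under the floor in all tumors, and the summed level of the 5 ranged from 1.80 to 2.07 normalized CPM in control and from 2.59 to 4.61 in PFSUV-IMQ tumors. Most of that sum came from Ttn, the only tested marker of the 5, at 1.47 ± 0.270 and 2.54 ± 1.00 normalized CPM (SD, n = 4). The groups overlapped for Ttn, and it did not pass (adjusted p = 0.360 by edgeR). The part of muscle RNA in the Trim72 counts was not tested.

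For the called members, the log2 ratio of each treated tumor to the control mean ran from 0.79 (Trim12c in tumor 1) to 5.34 (Trim30c in tumor 2). PFSUV-IMQ tumor 2 was the highest of its group in 13 of the 14 and tumor 1 the lowest in 9. The highest treated tumor exceeded the lowest by 1.38 times for Trim56 and by 5.31 times for Trim30d. Without tumor 2 all 14 members were still called, with log2 fold changes from 1.41 to 3.54 and adjusted p up to 0.0286. Tumor 2 also had the highest summed level of its group for liver and for most immune markers, as given above, and their part in these levels was not tested.

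**Figure D4:**
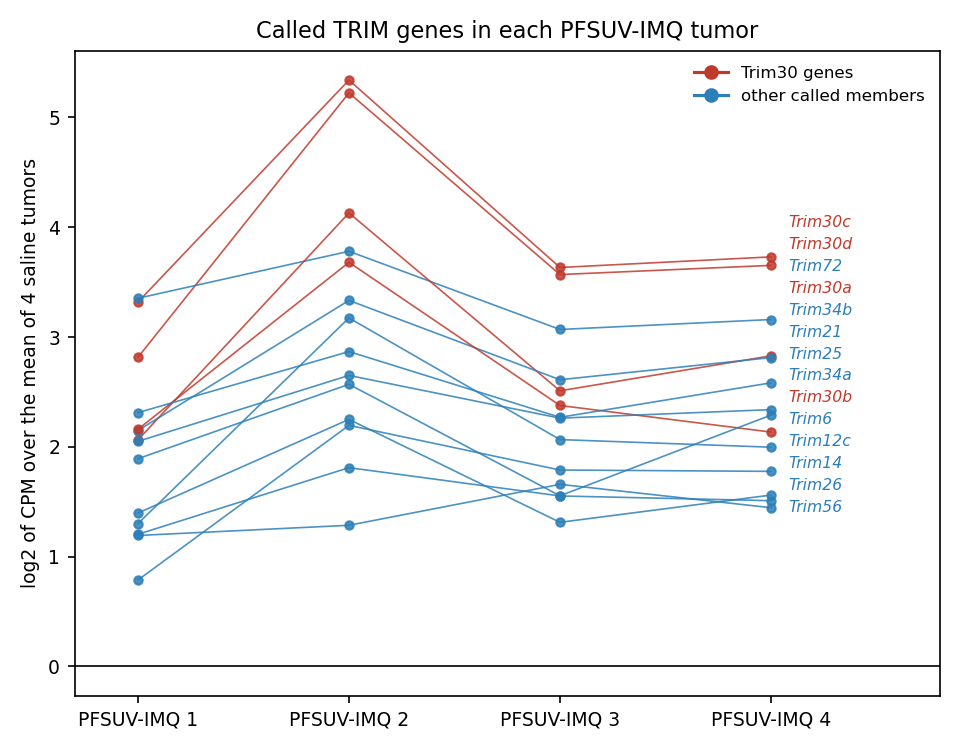
Log2 of the level in each PFSUV-IMQ tumor over the mean of the 4 control tumors for the 14 called TRIM genes, with lines joining the values of 1 gene and no order meant among tumors. Every value lies above 0, and tumor 2 is the highest for all genes but Trim56.

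Over lists of liver, immune, stromal, blood and muscle markers, 56 of 64 genes were tested. By edgeR 0 were called higher, beside 2.26% of all tested genes (4 at an unadjusted p under 0.05, 1 by DESeq2). The monocyte gene Cx3cr1 was the only one called lower, beside 0.200% of all tested genes (9 at an unadjusted p under 0.05, 3 by DESeq2). The other monocyte markers went in opposite directions and did not pass. Ccr2 changed by −1.23 ± 0.32 (SE) and Ly6c2 by 1.88 ± 0.44 (SE) (adjusted p = 0.0890 and 0.0633 by edgeR). For Ly6c2 every treated tumor lay above every control, and the 1 marker called higher by DESeq2 was in the monocyte list. Summed macrophage markers ranged from 1700.5 to 2469 normalized CPM in control and from 1134 to 2304 in PFSUV-IMQ tumors. Lyz2 was the largest part of that sum, at 1064 ± 240 and 875 ± 336 normalized CPM (SD, n = 4). None of the 7 macrophage markers had a log2 fold change above 0 (median −0.28). The largest fall was that of Clec4f, at −0.96 ± 0.27 (SE) (adjusted p = 0.122 by edgeR). Among treated tumors, Cd68 and Csf1r were highest in tumor 1 and the other markers of that list in tumor 2. Summed neutrophil markers ranged from 15.0 to 57.7 and from 29.6 to 137, and summed NK cell markers from 12.1 to 26.8 and from 23.6 to 76.6. Most of the NK cell sum came from Klrk1, at 13.2 ± 5.05 and 29.5 ± 18.5 normalized CPM (SD, n = 4), whereas Ncr1 stood at 0.998 ± 0.688 and 0.331 ± 0.297, and neither passed after adjustment (adjusted p = 0.252 and 0.325 by edgeR). The part of these cells in the rise of the TRIM genes was not tested.

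Of the members written down as interferon-induced, Trim69, Trim38, Trim5 and Trim12a were not called. Trim69 had 1.43, 1.65, 0.859 and 2.17 normalized CPM in control and 2.87, 2.03, 4.80 and 3.03 in PFSUV-IMQ tumors. Treated tumor 2 lay below control tumor 5, so the groups overlapped, and the log2 fold change of 1.06 ± 0.37 (SE) did not pass (adjusted p = 0.239). Trim38, whose protein acts on TLR and RIG-I signaling, had 1 count over the control tumors and 3 over the PFSUV-IMQ tumors, all 3 in tumor 3, and a change was not detectable at this depth.

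Trim15 came closest to a call. The gene lies next to Trim26 on chromosome 17 and had 0.599, 0.492, 0.558 and 0.217 normalized CPM in control and 1.21, 1.61, 0.948 and 1.16 in PFSUV-IMQ tumors. Its groups did not overlap, but its log2 fold change of 1.37 ± 0.37 (SE) had an adjusted p of 0.106. After Trim69, the next largest rises without a call were those of Trim11 (0.46 ± 0.19 (SE), adjusted p = 0.348), Trim66 (0.44 ± 0.52 (SE)), a corepressor gene known from testis, and Trim16 (0.42 ± 0.21 (SE)), whose protein lacks a RING domain, all with overlapping groups. Of the 6 members on chromosome 17, 3 were tested and 1 rose, Trim26, beside 2.26% of all tested genes.

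The PHD-bromodomain members are corepressors, and TRIM28, also known as KAP1, silences chromatin through KRAB zinc finger proteins. Trim28 was the most abundant TRIM gene per kilobase of exon in control tumors, at 55.6 normalized CPM per kb. Control tumors held 229.7, 200.1, 157 and 337 normalized CPM and PFSUV-IMQ tumors 284, 132, 246 and 218. The groups overlapped, and the log2 fold change was −0.07 ± 0.29 (SE) (adjusted p = 0.959). Trim24 gave 33.6, 29.7, 27.6 and 30.3 against 34.8, 27.7, 31.6 and 32.7, a narrow range in both groups, with a log2 fold change of 0.07 ± 0.14 (SE), which was -2.81e-04 with upper-quartile normalization. Trim33, whose protein acts on SMAD4 in TGF-β signaling, gave 89.0, 72.8, 55.5 and 54.5 against 53.0, 43.1, 56.5 and 72.3. Its change was −0.27 ± 0.22 (SE) and did not pass (adjusted p = 0.703).

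The members with NHL repeats bind RNA or act in neurons and muscle. Trim2 changed by −0.19 ± 0.26 (SE), Trim3 by 0.16 ± 0.20 (SE) and Trim32 by −0.03 ± 0.23 (SE) on the log2 scale, with adjusted p of 0.844, 0.822 and 0.979. Trim71, known from stem cells, had 9 counts in each group and was not tested (ratio 1.34 after scaling, 95% exact interval 0.472 to 3.81).

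The most abundant members that were not called were, by the mean over all 8 tumors per kilobase of exon, Trim28, Trim8, Trim47, Trim44 and Trim3. Trim8 had 107, 98.1, 101 and 128 normalized CPM in control and 135, 107, 138 and 147 in PFSUV-IMQ tumors, which overlapped, and a log2 fold change of 0.28 ± 0.16 (SE) (adjusted p = 0.544). Trim47 changed by 0.37 ± 0.22 (SE) and Trim44, which carries no RING domain, by −0.31 ± 0.18 (SE) (adjusted p = 0.552 and 0.535). Trim3 had 64.2, 60.5, 60.4 and 93.7 and 92.7, 59.8, 84.1 and 75.6 normalized CPM, with control tumor 5 apart from its group. With standard errors of 0.16 to 0.29 on the log2 scale, small changes of these 5 genes could have gone undetected.

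**Figure D5:**
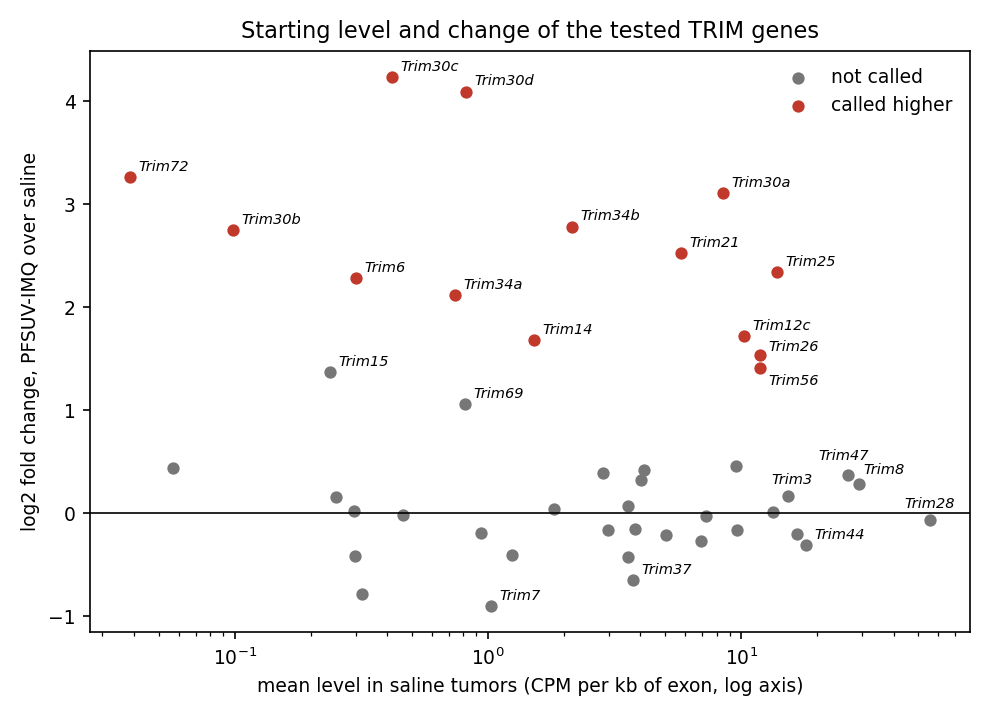
Log2 fold change against the mean level in control tumors (normalized CPM per kb of exon, log axis) for the 46 tested TRIM genes, with called members in red. Called members occur from 0.0387 (Trim72) to 13.9 (Trim25) normalized CPM per kb, and the 4 most abundant members (Trim28, Trim8, Trim47 and Trim44) were not called.

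Among members below 0, Trim37 was the only tested one whose treated tumors all lay under the controls. Its protein is an E3 ligase with a MATH domain. Control tumors gave 30.5, 24.2, 28.7 and 24.3 normalized CPM and PFSUV-IMQ tumors 20.03, 14.6, 13.2 and 20.7. The log2 fold change was −0.65 ± 0.19 (SE) with an unadjusted p of 0.00780, and it did not pass after adjustment (adjusted p = 0.147). Trim7, which binds glycogenin, gave 4.84, 6.43, 13.3 and 6.62 against 4.03, 5.31, 3.68 and 3.69, and control tumor 4 was far above the rest. Its change of −0.90 ± 0.33 (SE) did not pass either (adjusted p = 0.268). Trim36 (with a COS box), Trim23 (with an ARF domain) and Trim29 (without a RING domain) had changes of −0.78 ± 0.54 (SE), −0.42 ± 0.31 (SE) and −0.42 ± 0.53 (SE), with overlapping groups and adjusted p of 0.640, 0.657 and 0.827. PFSUV-IMQ tumor 1 held 1.77 normalized CPM of Trim29 against 0.279 to 0.613 in the other treated tumors, and without it the change was −1.25 (adjusted p = 0.173).

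The 20 untested members held at most 18 counts in any tumor. Trim42 and Trim60 had 0 counts in all 8 tumors, which allows a level of up to 0.105 to 0.210 normalized CPM in a tumor. Including these 2 genes, 9 members never exceeded 3 counts in any tumor. The Trim43 genes share 48.1% to 59.3% of their 50-base words with other genes, and of them only Trim43c was tested (log2 fold change 0.15 ± 0.55 (SE)). Tested members not named above had log2 fold changes from −0.40 to 0.39, and all of their groups overlapped.

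Genes with which these TRIM proteins act were taken from 4 lists of the sensing and interferon pathway, 35 genes in all. Of 34 tested, 14 were higher and 0 lower (18 and 0 at an unadjusted p under 0.05, 16 and 0 by DESeq2), beside 2.26% and 0.200% of all genes. Without PFSUV-IMQ tumor 2, 14 were called higher and 0 lower. Among sensors and adaptors 5 of 8 rose. Ddx58, the partner of TRIM25, went from 48.5 ± 7.33 to 293 ± 96.1 normalized CPM (SD, n = 4), a log2 fold change of 2.59 ± 0.26 (SE), and Rnf135, another E3 ligase of RIG-I, rose 3.99-fold (adjusted p = 0.00940). Ifih1 and Dhx58, the other RIG-I-like receptors, changed by 3.38 ± 0.41 (SE) and 3.53 ± 0.33 (SE), whereas Mavs, their adaptor, had −0.21 ± 0.16 (SE) (adjusted p = 0.683).

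Among kinases, adaptors and transcription factors downstream of the sensors 1 of 10 rose, Irf7, by 2.94 ± 0.31 (SE) (adjusted p = 0.00121). Over all tested genes 2.26% were called higher. Tab2, the partner of TRIM30a, had a log2 fold change of 0.17 ± 0.25 (SE), and Ikbke, the kinase that acts with TRIM6, had 1.45 ± 0.38 (SE) with an adjusted p of 0.0985. In interferon receptor signaling 3 of 7 rose, among them Stat2 (2.34 ± 0.19 (SE)) and Irf9 (1.26 ± 0.19 (SE)), which encode factors that act at the ISRE. The receptor chains Ifnar1 and Ifnar2 had −0.14 ± 0.14 (SE) and 0.05 ± 0.15 (SE).

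Of 9 tested genes for ISG15, a ubiquitin-like protein, and for partners of ubiquitin ligases, 5 rose, beside 2.26% of all tested genes. Isg15 went from 15.0 ± 4.64 to 489.6 ± 228 normalized CPM (SD, n = 4), a log2 fold change of 5.03 ± 0.41 (SE) (adjusted p = 5.52e-04). The ISG15 enzymes Uba7, Ube2l6, Herc6 and Usp18 changed by 2.29, 1.79, 3.39 and 4.82. The ubiquitin-conjugating genes Ube2d1, Ube2d2a, Ube2d3 and Ube2n, whose enzymes supply ubiquitin to RING ligases, had 0.23, 0.10, -1.74e-04 and −0.03, and none of them passed the test.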

How the data were processed

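RNA of 8 tumors was sequenced after library preparation with an mRNA kit. The authors deposited unnormalized counts of reads per gene and a table of signal values, the same counts scaled by the authors with DESeq2, from which only gene symbols were taken. The submitters' processing notes name Trimmomatic 0.38, HISAT2 2.1.0 and featureCounts 2.0.0, whereas the methods of the study name another aligner and counter, so which of them made the counts is not settled. The age of the mice also differs between the labels, used here, and the methods. Gene coordinates are those of GENCODE M21 on GRCm38.

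Members were matched to counts by Ensembl identifier. The 4 PFSUV-IMQ and 4 control tumors were fitted in R 4.3.3 with edgeR 4.0.16 (TMM, filterByExpr, quasi-likelihood test without covariates, Benjamini-Hochberg over 15998 genes). Standard errors (SE) were calculated back from the test, as the size of the log2 fold change divided by the square root of its F statistic. The fit was also tested on simulated data, with calls by adjusted p under 0.05 and no limit on the fold change. At the estimated dispersion most 2-fold changes were missed. The share of false calls exceeded that threshold with both edgeR and DESeq2, and it was larger with DESeq2. DESeq2 1.42.0, other normalizations, filters and call rules, a replicate term and the removal of each tumor were alternatives. Low counts were compared as ratios of summed counts with exact (Clopper-Pearson) intervals. For 1 gene of the interferon receptor signaling list, values are not reported here. The members, gene lists and tests were chosen with earlier results of these data known. Named members are those given with the rule, called, or listed as interferon-induced, the 5 most abundant, 5 largest rises and 5 largest falls not called, and fixed role lists. Trim43c and Trim68 were named after their values were seen. Replicates of a group correlated at 0.912 to 0.984 (Pearson, log2 CPM) and differed by more than sampling noise. Nothing in the labels says that each tumor is of its own mouse, and p-values measure the spread between these tumors.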

Additional observations from a re-analysis of the deposited data

Results flagged for a closer look

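In 66 groups of 4 tumors (33 named and tested members in each treatment), 5 had a tumor whose gap to its nearest neighbor exceeded Dixon's 95% critical share of the group's range. Chance flags about 1 in 20 groups. PFSUV-IMQ tumor 2 was the outlying tumor for Trim30b, at 9.50 normalized CPM, and for Trim30c, at 29.1. Without that tumor both genes were still called, with log2 fold changes of 2.22 and 3.54. Control tumor 4 was outlying for Trim30c at 1.68 normalized CPM, which still lay below every PFSUV-IMQ tumor. Control tumor 5 was outlying for Trim3 at 93.7 normalized CPM, and PFSUV-IMQ tumor 1 was outlying for Trim11 at 38.3, the lowest of its group. Neither Trim3 nor Trim11 was called in any alternative.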

How the results depend on the processing

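The same 14 members were called higher with no filter, with the DESeq2 test, with RLE or upper-quartile scaling in edgeR and with no limit on the fold change. At least 10 counts in every tumor left 11, because Trim30b, Trim30c and Trim72 were then not tested. Leaving out 1 tumor gave 10 to 14, all of them among the 14, with Trim6, Trim12c, Trim14 and Trim30b lost in some fits. No member was called lower in any alternative. Over all genes the numbers called higher and lower were 362 and 32, and moved to 619 and 131 with DESeq2. Without a filter 63 genes were lower. Leaving out 1 tumor gave 197 to 375 higher and 8 to 38 lower. The cause of these moves was not tested. Among 488 further values of named members, 469 kept their direction and side of the threshold, 10 lost a call on leaving out 1 tumor, and 9 changed sign, all in members that were never called. Of the 469, 33 are the reported values themselves, read with no limit on the fold change. Their direction was thus fixed in advance. On leaving out 1 tumor Trim28 ranged from −0.22 to 0.17, Trim2 from −0.39 to 0.030 and Trim32 from −0.17 to 0.097. Trim24 was -2.81e-04 with upper-quartile scaling. Depth limits the 20 untested members and Trim72, whose control tumors hold at most 3 counts.

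Replicate numbers 1, 3 and 4 are shared by the groups, and deviations of same-numbered tumors correlated at −0.32 to 0.29 over 3 pairs. Pairs with different numbers ran from −0.64 to 0.68, so these 3 pairs cannot show whether the numbers pair the tumors. With the replicate number as a block the same 14 members were called and 0 were lower, 416 genes were higher and 267 lower, and Trim28 (0.36) and Trim32 (0.11) changed sign without being called.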

Other observations

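Family members that carry other symbols were also counted. Pml encodes the organizer of nuclear bodies and is known as TRIM19. It had 41.3, 35.5, 45.5 and 49.0 normalized CPM in control tumors and 167, 287, 169 and 167 in PFSUV-IMQ tumors, which did not overlap, and a log2 fold change of 2.21 ± 0.23 (SE) (adjusted p = 0.00121 by edgeR's quasi-likelihood test). Mefv, which encodes the inflammasome sensor pyrin, had 1.38, 2.003, 2.79 and 1.74 and 4.63, 9.36, 3.07 and 3.14. Its groups did not overlap either, but its change of 1.34 ± 0.42 (SE) did not pass (adjusted p = 0.164). Mid1 and Mid2, microtubule-associated members with a COS box, had log2 fold changes of 0.49 ± 0.38 (SE) and −0.52 ± 0.31 (SE) with overlapping groups (adjusted p = 0.694 and 0.571).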
